A study of Homo sapiens with 3 samples.

Results

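The genes described here are those whose RNA level lay more than 2-fold away from parental LoVo in irinotecan-resistant LoVo-R8 cells, taken over both LoVo-R8 cultures. LoVo is an established human colorectal cancer cell line. For each gene, the log2 levels of the 2 LoVo-R8 arrays were averaged and the parental level was subtracted. A gene was taken when this mean difference exceeded 1 in size, when both LoVo-R8 arrays lay on the same side of the parental array, and when the gene was brighter than the array median on its higher side. This gave 700 of 18417 genes (3.8%), with 303 higher in LoVo-R8 (1.65% of the genes) and 397 lower (2.16%).

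RNA from 3 cultures was measured on whole-transcript Affymetrix arrays. Each culture gave 300 ng of RNA for 1 array. The parental culture was LoVo. LoVo-R8 had been derived from it by stepwise adaptation to irinotecan, from 0.1 to 8 μM, and one LoVo-R8 culture was irinotecan free while the other held 8 μM irinotecan. The labels give 2 passages per dose and the methods give another number, and neither says whether LoVo-R8 is a clone. The labels of all cultures share a text naming irinotecan 24 hours before RNA purification, so whether the parental culture received the drug is not known. No culture has a replicate. The LoVo-R8 arrays differ in drug and are not replicates of each other, both differences use the same parental array, and no error, test or p-value can be given for any value below. A biological difference and the deviation of the single parental array cannot be told apart.

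Irinotecan is a prodrug whose product SN-38 traps topoisomerase I on DNA, which leads to breaks during replication. Resistance is known to involve drug export by ABC transporters, drug metabolism and altered damage signalling. In carcinoma cells, resistance to cytotoxic drugs has also been linked to loss of epithelial character, in which E-cadherin and other junction genes are silenced by repressors such as ZEB1 and mesenchymal proteins such as vimentin appear.

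Levels are log2 values and are given in the order parental LoVo, irinotecan free LoVo-R8, LoVo-R8 with 8 μM irinotecan. The medians of the arrays were 6.94, 6.95 and 6.94, and the first quartiles were 5.39, 5.42 and 5.39. Levels below the first quartile lie where background limits the size of a difference. The cells kept colorectal epithelial markers, of which 12, 11 and 12 of 13 measured were above the array median and 0 were below the first quartile. Of the markers of fibroblasts (7 measured), endothelium (6), leukocytes (7), neuroendocrine cells (4) and erythroid cells (2), 0 were among the higher or lower genes, and 0 leukocyte markers lay above the median on any array. The summed linear level of the epithelial markers was 42210, 31520 and 33460, with 1 marker higher and 3 lower in LoVo-R8.

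The 303 higher genes had a median log2 difference of 1.34 over both arrays, and the 397 lower genes had one of -1.40. The tails were unequal. Of the higher genes, 56 were past 4-fold, 10 past a log2 difference of 3 and 1 past 4, and of the lower genes 92, 35 and 8. By the same rule on 1 array alone, 276 genes were higher (1.5%) and 474 lower (2.57%) on the irinotecan free array, and 387 higher (2.1%) and 386 lower (2.1%) on the 8 μM array. Past 2-fold on each LoVo-R8 array separately were 214 higher and 300 lower genes. Another 23 higher genes passed on the irinotecan free array alone and 66 on the 8 μM array alone, and for the lower genes these numbers were 60 and 37. Of the higher genes, 70.0% lay farther from parental on the 8 μM array, and of the lower genes 40.8%. Just inside the threshold were NUDT6 (1.0) and CCDC68 (1.001) among the higher genes and RRP36 and NGRN (both -1.001) among the lower, and just outside it were ORAI3 (1.0), TMEM144 (0.998), EPHA4 (-1.0) and ASPHD2 (-0.998). A further 25 higher and 34 lower genes passed 2-fold but were not above the median on the higher side, and 0 passed with opposite signs.

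**Figure D1:**
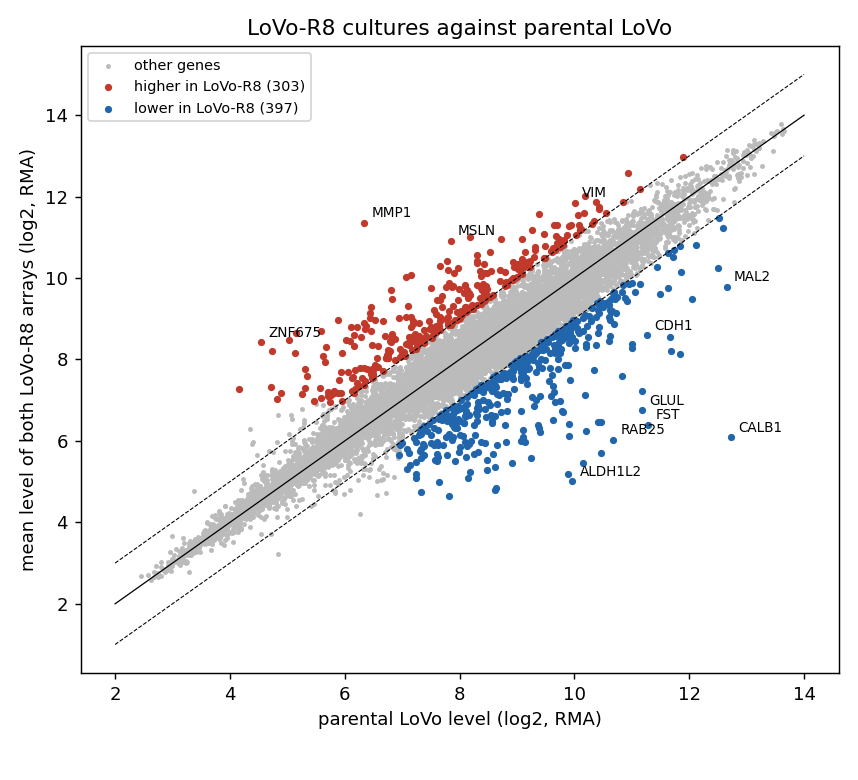
Mean log2 level of both LoVo-R8 arrays (vertical axis) against the parental level (horizontal axis), 1 point per gene, with the solid line at equal levels and dashed lines at 2-fold. The 303 higher genes (red) and 397 lower genes (blue) lie outside the lines, with MMP1 farthest above the line of equal levels (5.02) and CALB1 farthest below it (-6.64); grey points outside the lines were not above the median on the higher side.

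The gene farthest above parental was MMP1, the interstitial collagenase, at levels of 6.34, 11.19 and 11.53, a mean of 32.5-fold. Both LoVo-R8 arrays placed it among bright genes, while the parental level lay below the array median. MMP7, which encodes another secreted metalloproteinase, had levels of 6.47, 8.40 and 9.02. TFPI, the inhibitor of the tissue factor pathway of coagulation, had levels of 4.74, 8.29 and 8.13, a mean of 11.1-fold from a parental level below the first quartile. AGMO, which cleaves ether lipids, had 5.15, 8.32 and 8.96. Mesothelin (MSLN), a surface glycoprotein found on several carcinomas, was already above the median in parental LoVo, at 7.84, and lay at 10.80 and 11.03 in LoVo-R8. The ETS transcription factor gene ETV1 had 5.13, 7.97 and 8.36, the zinc finger transcription factor gene GLIS3 had 7.15, 10.14 and 10.0, and its antisense gene GLIS3-AS1 had 6.82, 9.59 and 9.40. For a gene and its antisense partner, the levels rest on the strand of the probes. The growth factor gene TGFB2 (6.33, 9.02 and 8.77), the phosphoinositide phosphatase gene INPP4B (5.68, 8.31 and 8.32), the RNA-binding protein genes BICC1 (6.45, 8.95 and 9.32) and RBMS3 (6.22, 8.62 and 9.0), and the amino acid transporter gene SLC7A8 (7.79, 10.29 and 10.52) followed. The pair of LoVo-R8 arrays lay within 0.40 of each other for each of ETV1, GLIS3, GLIS3-AS1, TGFB2, INPP4B, BICC1, RBMS3 and SLC7A8. ADH1C (5.58, 8.16 and 9.25), LINC00173 (6.45, 8.68 and 9.90) and GLIPR1 (6.44, 8.26 and 9.78) were over 1 higher with drug than without it. LINC01152 (4.15, 7.47 and 7.09) and FSIP2 (4.71, 7.63 and 7.0) started below the first quartile, as did AGMO and ETV1. Other probe sets of FSIP2 had mean differences of 1.11 and 0.01. In all, 13 higher genes started below the first quartile, CCL20, IL1A, ZNF675 and SULT1B1 among them.

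The gene farthest below parental was CALB1, the calcium buffer calbindin, whose levels of 12.73, 5.72 and 6.47 took it from the brightest of all lower genes to below the array median, a mean of 99.7-fold lower. The next genes were bright in parental LoVo as well. ALDH1L2, a mitochondrial enzyme of folate metabolism, had levels of 9.96, 4.90 and 5.11, a mean of 31.0-fold lower. FST, which encodes the activin antagonist follistatin, had 11.29, 6.43 and 6.37, a mean of 29.6-fold lower. CD200, a membrane glycoprotein whose receptor lies on myeloid cells, had 10.47, 5.62 and 5.77. PROM1 encodes prominin 1 (CD133), a marker used for stem-like colorectal cancer cells, and its levels were 9.90, 5.40 and 4.98. NFIB, a nuclear factor I transcription factor gene, had 10.16, 5.52 and 5.38. Glutamine synthetase (GLUL) had 11.18, 6.5 and 7.02, a mean of 21.4-fold lower, while its other probe set had 9.02, 7.3 and 6.9, a mean of 3.80-fold. LPCAT2, an acyltransferase of lysophospholipids, had 10.21, 5.67 and 6.80, so that the drug array lay 1.14 above the free one. BHLHE41, a repressor of the circadian clock, had 10.46, 6.73 and 6.23, and TDO2, which degrades tryptophan, had 8.61, 4.61 and 4.99. ST6GAL2 and GALNT3, enzymes of glycan synthesis, had 9.90, 6.30 and 5.94, and 9.24, 5.40 and 5.74. FXYD3, a regulator of the sodium pump, had 11.84, 8.23 and 8.03, and MACC1, a regulator of the MET receptor gene, had 8.92, 5.57 and 5.35. The remaining members of the 25 lowest were S100A14, the pseudogene TPTEP1, SPINK6, SPINK1, ATP10B, CCND2, MT1E, MID2, EMP2, ACSL1 and the GTPase gene RAB25, with mean differences between -4.65 and -3.18. For TPTEP1 this was 15.3-fold, and 8.16-fold on its other probe set.

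**Figure D2:**
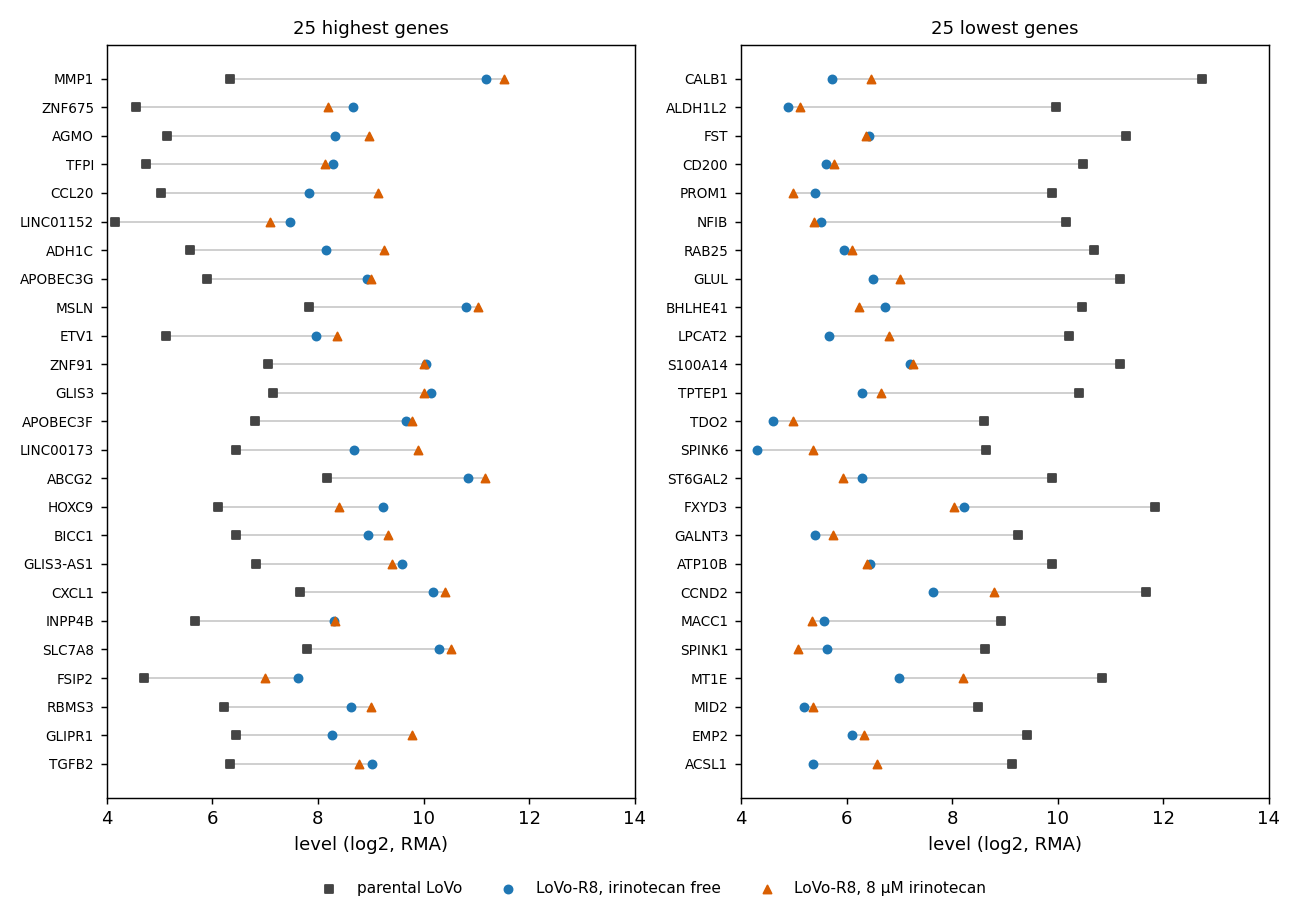
Log2 levels of the 25 highest (left) and 25 lowest genes (right) by mean difference, in parental LoVo (squares), irinotecan free LoVo-R8 (circles) and LoVo-R8 with 8 μM irinotecan (triangles), 1 array each. For each gene both LoVo-R8 arrays lie on the same side of the parental level, as the rule requires, and CALB1 has the widest gap, from 12.73 to 5.72 and 6.47.

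Some genes that maintain the epithelial state were among the lower genes, and some of the opposite, mesenchymal state among the higher. Of 18 measured epithelial regulators, 7 were lower and 0 higher (against 2.16% and 1.65% of all genes), and the median of the mean differences was -0.79, against 0.00 over all genes. This list and the others were chosen with earlier results of these data known, so their counts are not independent support. The same shares of all genes stand beside the counts of the lists below. RAB25, a GTPase of apical recycling, had levels of 10.68, 5.95 and 6.11, a mean of 25-fold lower. E-cadherin (CDH1) had levels of 11.26, 8.20 and 9.0, so it was lower in LoVo-R8 but stayed above the array median. MAL2, a protein of apical transport, had 12.65, 9.59 and 9.98. GRHL2, a transcription factor that keeps epithelial genes active, had 8.65, 5.77 and 6.02 and lay under the median on both LoVo-R8 arrays. The membrane protease gene ST14 had 10.38, 8.13 and 8.56. OVOL1, another epithelial transcription factor gene, had log2 differences of -1.20 and -1.62, and TMEM30B, a flippase subunit gene, had -1.19 and -1.16.

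Not every epithelial gene was lower. Of 17 measured genes of colon epithelial identity, 2 were higher and 1 lower, with a median of -0.17. EPCAM, the epithelial adhesion molecule, had levels of 12.33, 11.90 and 12.03, and the keratin genes KRT8 and KRT18 had mean differences of -0.52 and -0.47. CDH17, the intestinal cadherin and the brightest higher gene, had levels of 11.89, 12.95 and 13.01. The claudins were split, with CLDN7 (-1.62 and -1.82), CLDN4 (-2.02 and -0.98) and CLDN3 (-0.99 and -1.60) lower and CLDN1 (1.72 and 1.44) and CLDN2 (0.84 and 1.51) higher. Of 21 measured tight junction and desmosome genes, 3 were higher and 4 lower. P-cadherin (CDH3) had 9.80, 6.69 and 6.73, and the integrin alpha 2 gene ITGA2, a collagen receptor subunit, had 12.05, 9.24 and 9.71. ITGA2 was the 1 lower gene of 21 measured integrin and laminin genes, of which 1, LAMC1, was higher. Their median was -0.02. LAD1, an anchoring filament protein gene, had 9.78, 7.09 and 6.39, and AP1M2, a subunit of the epithelial sorting adaptor, had 9.37, 6.52 and 6.24.

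Of 20 measured mesenchymal genes, 4 were higher and 0 lower, with a median of 0.09. ZEB1, the repressor of E-cadherin, had levels of 7.06, 9.05 and 9.05. Vimentin (VIM), an intermediate filament of mesenchymal cells, had 10.01, 11.83 and 11.87. TGFBI, an extracellular protein named for its induction by transforming growth factor beta, had 8.73, 10.88 and 11.02, and the transcription factor gene TCF4 had 6.75, 7.91 and 8.19. The pair of LoVo-R8 arrays differed by 0.28 or less for all 4. The other 16 were not past the thresholds. Below the median on every array were ZEB2 at 5.23 on all arrays, SNAI2 at 5.79, 5.98 and 6.11, N-cadherin (CDH2) at 5.36, 5.49 and 5.36, and fibronectin (FN1) at 6.18, 5.82 and 5.67. PRRX1 differed by 1.46 and 1.39 from 5.5, but was not above the median in LoVo-R8.

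**Figure D3:**
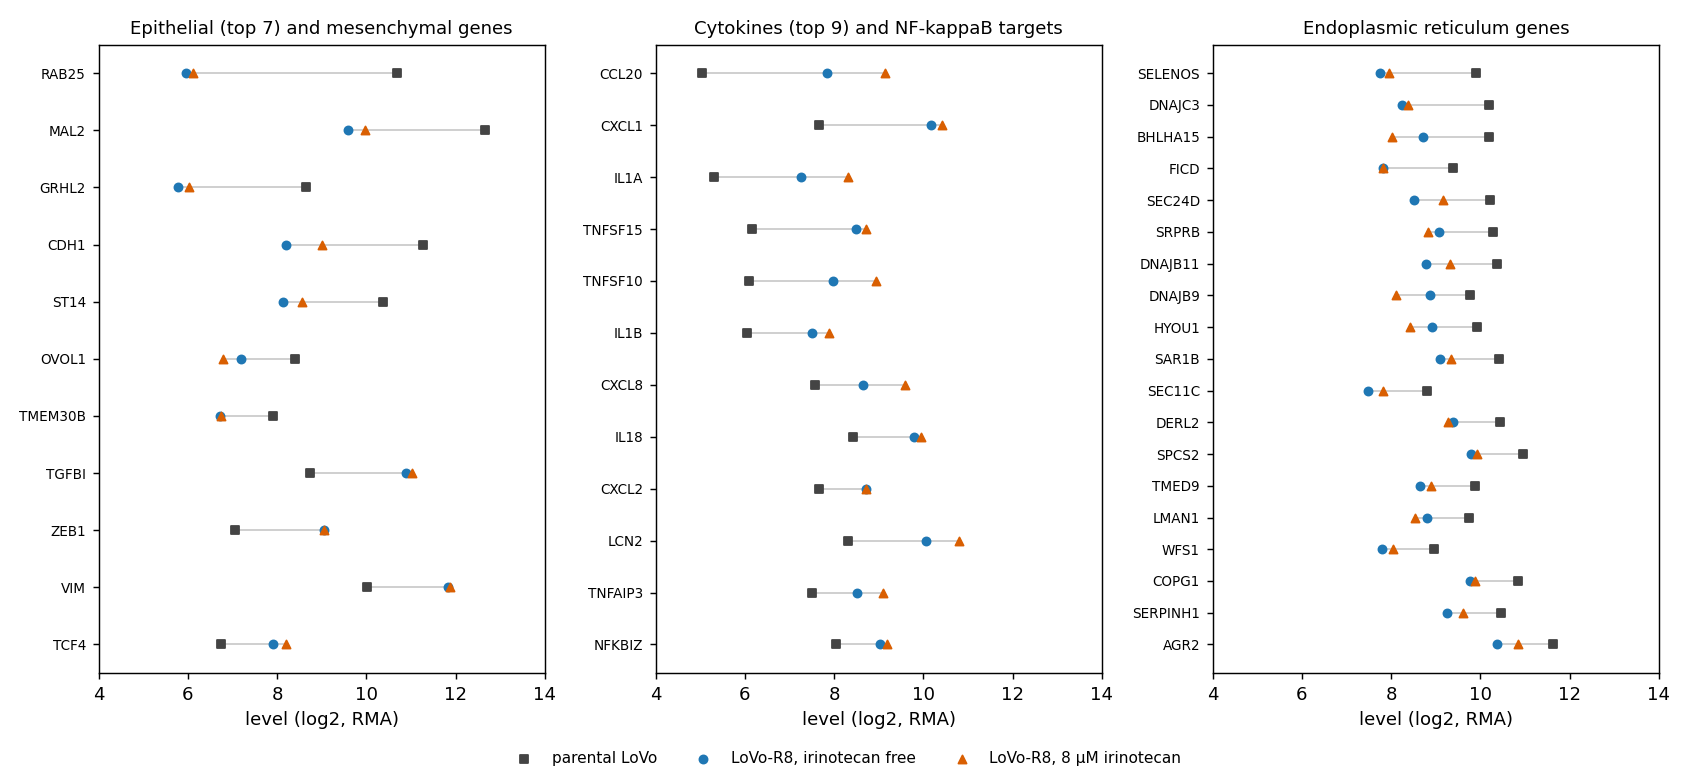
Log2 levels of the epithelial regulators that were lower and mesenchymal genes that were higher (left), of cytokines and NF-kappaB targets that were higher (middle) and of lower genes of the endoplasmic reticulum (right), in parental LoVo (squares), irinotecan free LoVo-R8 (circles) and LoVo-R8 with 8 μM irinotecan (triangles), 1 array each. ZEB1 lies at 9.05 on both LoVo-R8 arrays and 7.06 in parental LoVo, while CDH1 lies at 8.20 and 9.0 against 11.26.

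ZEB1 binds the E-box CACCTG, so the promoters of the members were searched for it on both strands, together with CAGCTG and CACGTG, the E-boxes of other factors. Sequences came from RefSeq (GRCh38.p14) and cover 250 bases before and 50 after the gene start, and 14237 of the genes have one there, among them 235 of the higher and 318 of the lower genes. CACCTG was present in 19.6% of all promoters, in 29.2% of those of lower genes and in 11.5% of those of higher genes. Among genes past 4-fold, it was present in 30 of 67 promoters of lower genes (44.8%) and in 5 of 46 of higher genes (10.9%). CAGCTG was present in 17.7% of all promoters, 18.2% of those of lower genes and 14.9% of those of higher genes, and CACGTG in 8.88%, 8.49% and 6.38%. The median GC content was 63.0% for all promoters, 66.0% for lower genes and 57.7% for higher genes, and 63.7% for lower genes past 4-fold. The part of base composition in these shares was not tested. A match describes letters and not a bound site, and these motifs were chosen after the expression values were seen.

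The parts of the promoters that hold the E-box are shown for 5 lower genes, to let a reader see where the copies lie. Each runs 5′ to 3′ on the strand of the gene, up to 20 bases beyond its outer copies and not past the gene start, and CACCTG or its complement CAGGTG is in capitals.
RAB25 (chr1:156061099-156061144, + strand): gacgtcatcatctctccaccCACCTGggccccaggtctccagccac
S100A14 (chr1:153616326-153616359, - strand): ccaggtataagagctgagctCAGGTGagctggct
LAD1 (chr1:201399334-201399405, - strand): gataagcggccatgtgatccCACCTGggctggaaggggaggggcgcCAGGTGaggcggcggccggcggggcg
AP1M2 (chr19:10587313-10587389, - strand): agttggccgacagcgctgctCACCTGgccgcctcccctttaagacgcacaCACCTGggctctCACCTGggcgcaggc
MACC1 (chr7:20217418-20217634, - strand): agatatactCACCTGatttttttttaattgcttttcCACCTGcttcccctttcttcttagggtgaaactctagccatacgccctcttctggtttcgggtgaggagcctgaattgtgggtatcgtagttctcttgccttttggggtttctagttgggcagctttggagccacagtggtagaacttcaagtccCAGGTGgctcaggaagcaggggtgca
RAB25 and S100A14 each hold 1 copy, which starts 41 and 14 bases before the gene start, LAD1 holds 2 and AP1M2 and MACC1 hold 3 each. The level of S100A14, a calcium-binding protein of epithelia, was 11.17, 7.21 and 7.26. No promoter of CDH1, ST14, GRHL2 or MAL2 was analysed here.

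Chemokines and cytokines lay on the higher side. Of 29 measured, 9 were higher and 0 lower, with a median of 0.37. CCL20, which attracts lymphocytes and dendritic cells, had levels of 5.03, 7.83 and 9.14. The neutrophil attractants CXCL1 and CXCL8 had 7.66, 10.18 and 10.41, and 7.58, 8.64 and 9.58. These genes had higher levels with drug than without it, by 1.31 for CCL20 and 0.24 for CXCL1. The interleukin 1 genes IL1A (5.30, 7.26 and 8.30) and IL1B (6.05, 7.5 and 7.89) are neighbours on chromosome 2 with CKAP2L (8.99, 10.02 and 10.06), and IL18 had 8.42, 9.78 and 9.94. TNFSF15 (6.16, 8.49 and 8.71) and TNFSF10 (6.10, 7.97 and 8.93), ligands of the tumor necrosis factor family, were higher, as was the receptor gene TNFRSF9 (5.96, 7.99 and 8.31). The NF-kappaB targets LCN2 (8.31, 10.05 and 10.79), TNFAIP3 (7.5, 8.52 and 9.10) and NFKBIZ (8.04, 9.02 and 9.18) were the higher members of a list of 17, of which 0 were lower. Of 14 measured prostaglandin genes, 1 was higher and 4 lower, against 1.65% and 2.16% of all genes. Their median of -0.07 was close to the 0.00 of all genes. PTGS2, which encodes cyclooxygenase 2, had levels of 9.75, 7.06 and 6.90, PLA2G2A had 9.08, 6.67 and 6.80, and HPGD, which inactivates prostaglandins, had 11.49, 9.52 and 9.72. The higher one was the phospholipase gene PLA2G4A, at 6.83, 8.16 and 8.93.

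The letters GGNNTTTCC, a form of the NF-kappaB element, were found on either strand in 6.6% of all promoters, in 8.51% of those of higher genes and in 4.72% of those of lower genes. Among the 8 higher chemokine and cytokine genes with a promoter sequence, CCL20, CXCL1, CXCL2 and CXCL8 held it. It is in capitals in the stretches of 3 of them, cut in the same way as those above.
CXCL1 (chr4:73869295-73869368, + strand): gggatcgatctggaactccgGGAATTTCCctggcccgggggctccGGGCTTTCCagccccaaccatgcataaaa
CXCL8 (chr4:73740458-73740506, + strand): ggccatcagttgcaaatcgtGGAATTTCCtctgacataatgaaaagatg
CCL20 (chr2:227813743-227813791, + strand): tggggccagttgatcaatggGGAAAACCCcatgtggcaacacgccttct
CXCL1 holds 2 copies and the others 1 each, and the copy in CCL20 reads on the opposite strand. Shares of the other elements searched stand beside these. TATAAA was in 9.0% of all promoters, 10.2% of those of higher genes and 8.81% of those of lower genes, TGANTCA (the AP-1 element) in 5.58%, 7.66% and 5.97%, TGATGNAA (a CHOP and ATF4 element) in 2.54%, 2.98% and 1.26%, and TTTGGCGC (an E2F element) in 0.864%, 0% and 0.629%. In the same 8 chemokine and cytokine promoters, TATAAA was in 4, TGANTCA in 3, and TGATGNAA and TTTGGCGC in 0. A high share in these promoters was thus not particular to GGNNTTTCC.

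Several further groups were on the higher side. APOBEC3 genes encode cytidine deaminases of innate defence, and 5 of 6 measured were higher, with a median of 1.44. APOBEC3G had levels of 5.89, 8.92 and 9.01, APOBEC3F 6.80, 9.66 and 9.78, and APOBEC3C 8.09, 9.90 and 9.74. APOBEC3D (1.17 and 1.12) and APOBEC3B (0.99 and 1.1) were less far from parental. The 5 genes are neighbours (chr22:38982347-39087743), and as close paralogs their probe sets may share sequence, so it is uncertain how many of them differed. The same holds for the zinc finger genes of 19p12, of which 6 of 31 were higher and 0 lower, with a median of 0.37. ZNF675 had levels of 4.55, 8.67 and 8.19, ZNF91 7.06, 10.05 and 10.0, and ZNF254 5.65, 8.04 and 7.82.

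Of 27 measured HOX genes, which set positional identity, 4 were higher and 0 lower, with a median of 0.07. Over all genes, 1.65% were higher and 2.16% lower, and these shares also stand beside the other lists of this paragraph. HOXC9 (6.11, 9.23 and 8.39), HOXC8 (6.48, 8.01 and 7.53) and HOXC5 (5.90, 7.61 and 7.39) lie next to one another and to MIR196A2 (chr12:53991738-54035361), and each of the 3 HOXC genes was higher without drug than with it. HOXB5 was the fourth (0.86 and 1.59). Of 19 genes of MAP kinase feedback, 5 were higher and 0 lower, with a median of 0.39. Besides ETV1 these were SPRY2 (9.29, 10.44 and 10.61), ETV4 (8.82, 9.58 and 10.1), FOSL1 (9.75, 10.91 and 10.74) and EGR1 (8.70, 10.43 and 9.43). EGR1, an immediate early gene, had the most negative difference between the LoVo-R8 arrays of all members, -1.0 with drug against without. Of 27 Wnt and stem cell genes, AXIN2 (8.54, 9.85 and 10.47) and LGR4 (9.81, 10.83 and 10.81) were higher and PROM1 was lower, with a median of 0.00.

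Transport and metabolism of drugs and nutrients differed in several ways. ABCG2 (8.18, 10.84 and 11.16), an efflux pump for SN-38, and ABCB1 (8.31, 10.39 and 10.76), P-glycoprotein, were higher, while ABCC2, which exports conjugates, was lower at 8.82, 6.54 and 6.92. Of 12 measured efflux transporters, 3 were higher and 1 lower. ABCB1 lies beside ABCB4 (6.17, 6.94 and 7.63), a paralog that may share probe sequence, and RUNDC3B (6.73, 7.91 and 8.31), and all 3 were higher (chr7:87365896-87832296). In the 10 megabases that hold them, from chr7:80000001-90000000, 6 of 25 measured genes were higher, 24.0% against 1.65% of all genes, including GNAI1 (7.98, 10.41 and 10.08), a G protein subunit gene. CYP3A5, a cytochrome that oxidises irinotecan and has close paralogs, had 7.82, 10.06 and 9.71. DPYD, which degrades the drug 5-fluorouracil, had 6.67, 8.91 and 8.99 and was the 1 gene past 2-fold of 14 of fluoropyrimidine metabolism. The aldehyde dehydrogenase ALDH1A1, a marker of stem-like cells, had 7.79, 10.52 and 9.89 and was higher with ADH1C and ADH6 among 20 alcohol and aldehyde dehydrogenases, of which 0 were lower. Sulfation genes were split, with 4 of 15 higher, such as the sulfotransferase gene SULT1B1 (5.26, 6.82 and 7.49), and 3 lower, such as the steroid sulfatase gene STS (7.79, 5.78 and 5.55), and a median of 0.04. The lists of fluoropyrimidine, dehydrogenase and sulfation genes were drawn up after the values were seen. Of 16 measured genes for topoisomerases and the repair of their adducts, 0 were higher and 0 lower, with TOP1 itself at 11.33, 11.66 and 11.34. With 3.8% of all genes past the rule in either direction, 0 of 16 does not set this list apart from other genes.

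Amino acid transporters were divided, with 4 of 27 higher and 4 lower. SLC7A8, SLC7A7 (9.09, 10.28 and 10.67) and the glutamate carriers SLC1A3 (6.78, 8.18 and 8.71) and SLC1A1 (7.96, 8.92 and 9.39) were higher, and the cationic amino acid carrier SLC7A2 (8.25, 5.78 and 5.60) was lower. The glutamine synthetase gene GLUL was the 1 lower gene of 12 of glutamine and glutamate metabolism. In sterol and fatty acid synthesis, 5 of 15 genes were lower and 1 higher, with a median of -0.75. Squalene epoxidase (SQLE) had levels of 10.35, 7.25 and 8.22, INSIG1, a sterol sensor, had 10.43, 8.60 and 9.01, and STARD4, a sterol carrier, had 9.44, 7.78 and 7.80. The fatty acid elongase gene ELOVL6 was the higher one, at 7.27, 7.89 and 8.76.

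Genes of the endoplasmic reticulum were also among the lower genes. Of 65 measured genes of protein folding, quality control and early secretion, 19 were lower and 0 higher, with a median of -0.78, against 2.16% and 0.00 over all genes. This list was drawn up after the values were seen and was the longest of all lists, so its count does not rank it against the others. SELENOS, a selenoprotein of the degradation pathway, had levels of 9.89, 7.76 and 7.95. DNAJC3, an inhibitor of PERK, had 10.20, 8.24 and 8.37, and BHLHA15, a transcription factor of secretory cells, had 10.20, 8.72 and 8.02. The co-chaperones DNAJB11 (10.37, 8.79 and 9.31) and DNAJB9 (9.76, 8.87 and 8.11), the chaperone gene HYOU1 (9.92, 8.91 and 8.41), the coat protein genes SEC24D (10.22, 8.52 and 9.15) and SAR1B (10.41, 9.10 and 9.34), and the signal peptidase genes SEC11C (8.81, 7.48 and 7.82) and SPCS2 (10.95, 9.79 and 9.92) lay lower too. FICD, which modifies BiP, had 9.38, 7.82 and 7.82, and BiP itself (HSPA5) had mean difference -0.92, short of 2-fold. All 19 were above the array median on every array. Of 21 cytosolic heat shock genes, 5 were lower and 0 higher, among them DNAJB1 (10.66, 8.80 and 9.60), DNAJA1 (11.05, 9.25 and 10.05) and HSPH1 (10.88, 9.05 and 9.97), which lay between the free and parental levels when the drug was present. The heat shock list was also drawn up after the values were seen.

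Genes of the G1/S transition and DNA replication were lower in 5 of 30 cases and higher in 0, with a median of -0.52. The cyclin gene CCND2 had levels of 11.68, 7.64 and 8.79, and CCNE2 had 9.63, 6.29 and 8.38. CDC6, which loads the replicative helicase, had 10.24, 8.11 and 9.02, and CDC25A, a phosphatase that activates cyclin-dependent kinases, had 8.75, 6.70 and 7.67. CCNE1 had 9.17, 7.56 and 8.05. All 5 were farther from parental without drug than with it. CDC6 and CDC25A were the 2 lower genes whose promoters held TTTGGCGC.

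Of 24 measured interferon-stimulated genes, 2 were higher and 4 lower, against 1.65% and 2.16% of all genes, with a median of -0.33. IFIT1 (8.10, 6.59 and 6.90), IFIT2 (7.32, 5.71 and 5.79), the RNA sensor gene RIGI (8.88, 7.61 and 7.74) and MX1 (8.40, 7.20 and 7.48) were lower, and GBP2 (6.56, 7.90 and 8.15) and the immunoproteasome gene PSMB9 (8.20, 9.14 and 9.37) higher. Of 24 mucin and differentiation genes, 4 were lower and 0 higher, against 2.16% and 1.65% of all genes. Their median was 0.02, so the list as a whole was not shifted. MUC2, the secreted mucin of goblet cells, had 9.33, 7.19 and 6.82, and MUC12 had 11, 7.94 and 8.82, with mean differences of -2.50 and -1.02 on its other probe sets. The lectin gene LGALS4 had 10.60, 8.33 and 8.59 and was the 1 lower gene of the colon epithelial identity list, in which 2 were higher. Of 25 measured surface antigens, 3 were higher and 3 lower, with a median of -0.05. The carcinoembryonic antigen gene CEACAM5 had 12.50, 10.13 and 10.39 and its paralog CEACAM6 had 11.64, 9.40 and 10.13, and shared probe sequence makes their separation uncertain. The inhibitors of the SPINK family had 3 of 7 lower, with SPINK1 at 8.62, 5.63 and 5.08, SPINK6 at 8.64, 4.31 and 5.36 and SPINK7 at 7.82, 4.65 and 4.66. The share over all genes was 2.16%. This list was drawn up after the values were seen, with SPINK1 and SPINK6 among the 25 lowest genes, so its count is not a result about the family. The metallothionein gene MT1E had 10.83, 6.99 and 8.20, with close paralogs. Of 24 redox genes regulated by NRF2 or related to it, 1 was higher and 2 lower, with a median of -0.42. GPX2, a glutathione peroxidase of the gut, had 11.66, 7.83 and 9.30, AKR1C2, which has close paralogs, 7.82, 6.24 and 6.12, and the Sestrin gene SESN3 7.61, 9.22 and 9.72.

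**Figure D4:**
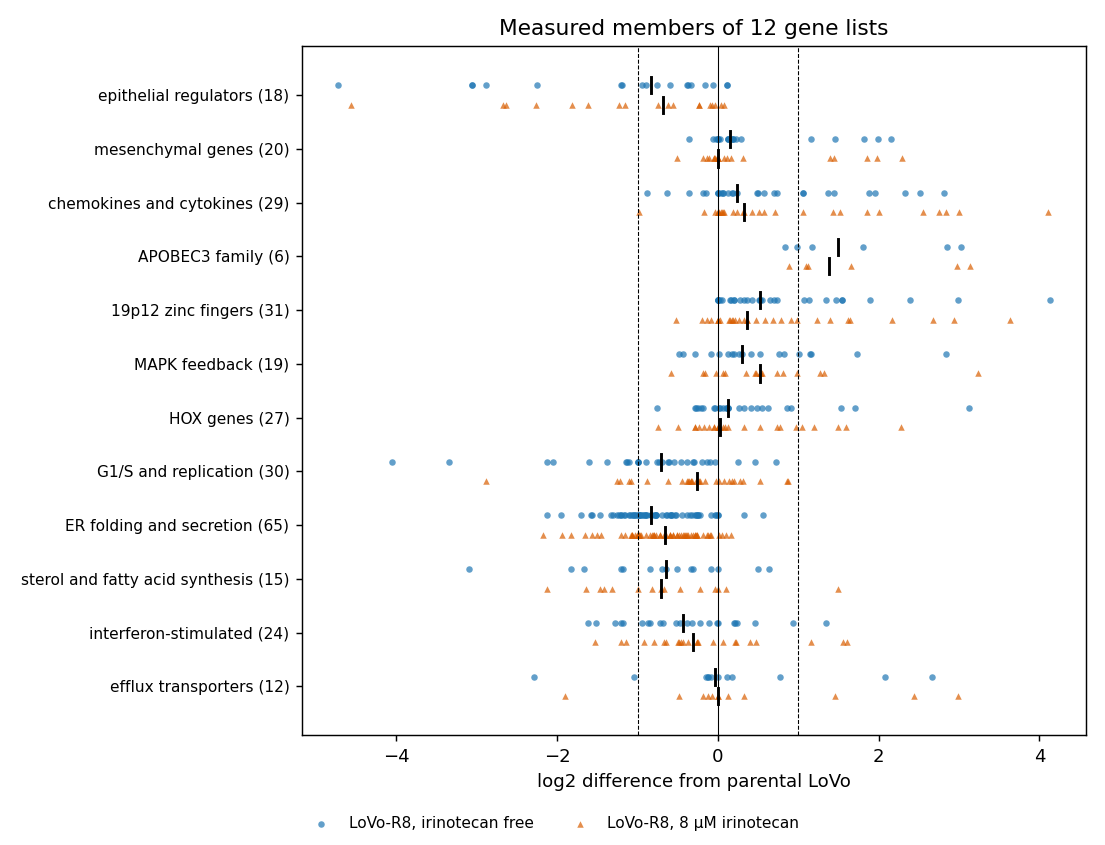
Members of 12 gene lists by their log2 difference from parental LoVo (horizontal axis), on the irinotecan free array (blue circles) and the 8 μM array (orange triangles). Black bars give the medians, and the dashed lines stand at 2-fold. Numbers in brackets are measured genes, and the medians include 1.49 and 1.39 for the APOBEC3 family, -0.83 and -0.68 for epithelial regulators and -0.83 and -0.66 for folding and secretion in the endoplasmic reticulum (ER).

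Among 173 measured microRNA genes, 3 were higher (1.73%, near the 1.65% of all genes) and 0 lower. These probe sets cover the hairpin gene in total RNA and do not measure the mature microRNA. MIR222 had levels of 7.81, 9.17 and 9.23, its neighbour MIR221 8.37, 9.28 and 9.47, and MIR196A2, which lies in the HOXC cluster, 5.46, 6.84 and 7.10. The mature sequences, from RefSeq, are shown because MIR221 and MIR222 belong to a family. The seed, bases 2 to 8, is in capitals and is the same in those 2.
hsa-miR-221-3p: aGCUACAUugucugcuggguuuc
hsa-miR-222-3p: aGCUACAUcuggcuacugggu
hsa-miR-196a-5p: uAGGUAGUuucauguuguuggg

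Differences between the LoVo-R8 cultures were small for most members, though wider than over all genes. Between these arrays, 95% of all genes differed by less than 0.53, 95% of the higher members by less than 1.07 and 95% of the lower members by less than 1.0. Over 1 apart were 17 of the 303 higher and 20 of the 397 lower members, against 118 of all 18417 genes. Members thus differed by this much more often than genes in general. The members farthest apart were SNORA22, CCNE2, RNU5E-1, RNU4-1 and SNORD41. The small RNA genes among them, SNORA22 (8.54, 9.50 and 11.76), RNU5E-1 (8.71, 9.21 and 11.17), RNU4-1 (7.61, 7.74 and 9.66) and SNORD41 (10.37, 10.96 and 12.76), had levels with drug that stood apart, and their mean rests on that array. Small nuclear RNAs also have many copies, so their probe sets are uncertain. PI3, the elastase inhibitor elafin, had 8.16, 8.88 and 10.39. Among lower genes, CCNE2 (9.63, 6.29 and 8.38) and the glutaredoxin gene GLRX (8.47, 5.73 and 7.45) lay nearer to parental with drug, and the desmoglein gene DSG3 (10.15, 9.50 and 8.55) lay farther.

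The lower genes were unevenly placed in the genome. On chromosome 5, 45 of 783 measured genes were lower (5.75%), and on chromosome 15, 32 of 576 (5.56%), while on the other autosomes and chromosome X the share ran from 0.935% to 3.03%, against 2.16% over all. Higher genes made up 1.66% on chromosome 5, near the 1.65% of all genes, and 0.521% on chromosome 15, below that share. The lower genes of chromosome 5 reached from ADCY2, which starts at base 7396138, to TBC1D9B, at base 179862071, and those of chromosome 15 from HERC2 (28111040) to TARS3 (101653596). Their median differences were -1.19 and -1.20, smaller than the -1.40 of all lower genes. Besides FST, ITGA2 and SPINK genes, chromosome 5 held the cyclin gene CCNI2 (9.60, 6.79 and 7.39), the formin gene DIAPH1 (9.89, 8.37 and 8.68) and the histone methyltransferase gene NSD1 (9.73, 8.47 and 8.40). Chromosome 15 held the initiation factor gene EIF3J (10.62, 8.64 and 8.5), the apoptosis inhibitor gene AVEN (9.84, 8.20 and 7.54), ARNT2 (8.14, 6.19 and 5.57) and the isocitrate dehydrogenase subunit gene IDH3A (12.13, 10.69 and 10.92).

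The shift on these chromosomes was not limited to the genes past 2-fold. Over genes above the median in the mean of the arrays, the median difference was -0.28 without drug and -0.27 with it for 471 genes of chromosome 5, and -0.38 and -0.28 for 350 genes of chromosome 15, against -0.01 and 0.00 for 11010 genes of all autosomes and chromosome X. Of these genes, 69.4% lay below parental on chromosome 5 and 77.1% on chromosome 15, and on each of the other autosomes and chromosome X between 41.1% and 56.2% did.

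**Figure D5:**
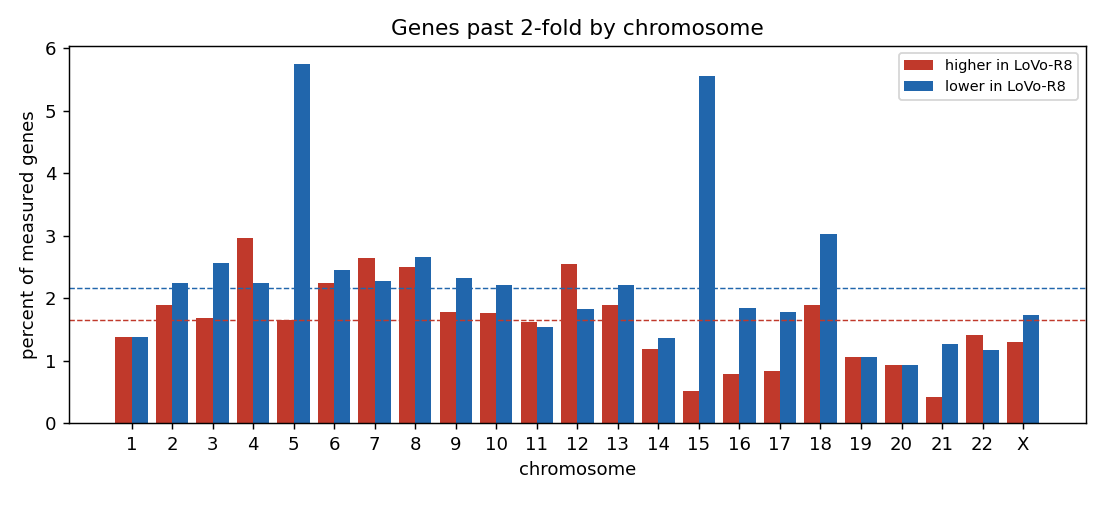
Percent of the measured genes of each autosome and chromosome X that were higher (red) or lower (blue) in LoVo-R8, with dashed lines at the shares over all genes (1.65% and 2.16%). Lower genes stand out on chromosome 5 (5.75%) and chromosome 15 (5.56%).

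Short runs of neighbouring members occurred in both directions. Among the higher genes, besides the APOBEC3 and HOXC runs, RFX3 (6.72, 8.36 and 7.73), GLIS3, GLIS3-AS1 and SLC1A1 follow one another (chr9:3218297-4587469), and on chromosome 8 PDP1 (10.03, 10.81 and 11.29), CDH17, GEM (7.96, 9.34 and 9.58) and RAD54B (7.39, 8.01 and 8.86) do. Besides the runs of 3 that hold IL1A and ABCB1, the higher genes RAB27B, CCDC68 and the mesenchymal list member TCF4 follow one another (chr18:54717857-55635957). Runs of 3 lower genes were BHLHE41, SSPN (8.17, 6.53 and 6.72) and ITPR2 (7.76, 5.87 and 7.24) on chromosome 12 and DERL2, MIS12 (9.03, 7.93 and 8.05) and WSCD1 (7.73, 6.73 and 6.38) on chromosome 17. By class, 280 of 16902 protein-coding genes were higher (1.66%) and 387 lower (2.29%), and 7 of 632 long noncoding RNA genes were higher (1.11%) and 4 lower (0.633%).

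Other probe sets for the same gene were few. Copies with the same values as another probe set of the gene, 5 for higher and 4 for lower genes, were left out. Of 16 further probe sets of 13 higher genes, 16 lay above parental and 7 past 2-fold, with a median of 0.98. Of 15 further probe sets of 13 lower genes, 12 lay below and 7 past 2-fold, with a median of -0.93.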

How the data were processed

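Total RNA of 3 cultures was hybridised to Affymetrix Human Gene ST arrays by the authors, who deposited log2 levels for 33297 probe sets after robust multichip averaging (RMA), with background correction, quantile normalization and median polish. Affymetrix Expression Console 1.1 is named in the submitters' notes on processing, R and Bioconductor in the methods. RMA was fitted on 3 arrays, so levels are relative to this series. Precision is limited by having 3 arrays.

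The array annotation gave 19460 probe sets with 1 gene, of which 19429 matched the RefSeq annotation of GRCh38.p14 by Entrez identifier, with 0 symbols changed. The probe set with the highest mean represented a gene, which gave 18417 genes. Differences are subtractions of log2 levels, with a threshold of 1, computed with pandas 2.3.3 and numpy 2.4.6 in Python 3.11.15 (loess from statsmodels 0.14.6, plots from matplotlib 3.10.9). No test was run. The calculation was tested on simulated data.

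The members and gene lists were chosen with earlier results of these data known. Of 50 lists, 8 were added after these values were seen, namely those for the endoplasmic reticulum, heat shock, metallothioneins, SPINK genes, alcohol and aldehyde dehydrogenases, sulfation, fluoropyrimidines and the TNF family. The genes named are the 25 highest and 25 lowest, up to 6 members of a list, the brightest, those farthest apart between the LoVo-R8 arrays, those at the threshold and runs of neighbours, with others named after their values were seen. The chromosome summary over genes above the median was added after seeing the data. Alternatives were thresholds of 1.5-fold and 3-fold, other filters on dim genes, other normalizations (loess with span 0.3 and 3 iterations), the mean over probe sets and leaving out either LoVo-R8 array. Probe sets naming several genes (1754) or none (12083) were left out.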

Additional observations from a re-analysis of the deposited data

Results flagged for a closer look

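For a few gene groups the median difference from parental LoVo had opposite signs on the LoVo-R8 arrays. None of these differences was tested, since each culture has 1 array. The widest gaps were in the targets of the stress factors ATF4 and CHOP, with medians of 0.28 without irinotecan and -0.46 with it over 19 measured genes, and in metallothioneins, with -0.78 and 0.03 over 10. The others were close to 0.00. Integrins and laminins had -0.09 and 0.14, surface antigens 0.05 and -0.11, calcium-binding proteins 0.01 and -0.11, mucins and differentiation genes 0.07 and -0.03, and guanylate-binding and RAS family genes 0.05 and -0.09.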

How the results depend on the processing

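The counts of 303 higher and 397 lower genes depended mainly on the threshold. They were 755 and 1271 at 1.5-fold, 100 and 146 at 3-fold, and 196 and 237 when the higher side had to be above the third quartile. Requiring 2-fold on each LoVo-R8 array gave 214 and 300, and no filter on dim genes 328 and 431. Median centring, loess correction, repeated quantile normalization and the mean over probe sets gave 299 to 327 higher and 369 to 397 lower genes. Leaving out either LoVo-R8 array gave 276 to 387 higher genes and 386 to 474 lower genes. Of 698 members off chromosome Y, 103 were no longer past 2-fold on the irinotecan free array alone and 83 on the 8 μM array alone. The direction of 0 of these members was reversed by the normalizations or the mean over probe sets. On either array alone the rule itself fixes the direction. No paired analysis was possible because each culture has 1 array. The single parental array stands behind every difference, and levels below the first quartile limit the size of the differences of the dimmest genes.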
